A study of Rattus norvegicus with 16 samples.

Results

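The 44 genes described here encode the machinery with which the endoplasmic reticulum (ER) takes in, folds, checks and ships secreted proteins. They were chosen by symbol, with earlier results of these data known, and fall into 6 roles. There are 11 chaperones and folding cofactors, 6 disulfide enzymes and 12 genes of the translocon and signal peptidase. Ostc, a subunit of the oligosaccharyltransferase, is grouped with these 12. The others are 8 degradation factors, 3 stress sensors or regulators, and 4 transport factors. All 44 are listed in the PND540 table (24218 entries) and 43 in the PND21 table (28688 entries). Derl3, a membrane factor of ER degradation, is the one not in it; at PND540 it had 1 count in 2 libraries and 0 in 7, and it was not tested. The other 43 passed the filter on low counts in every comparison, with 125 to 138432 counts per library.

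The mRNA came from the ventral prostate of rat offspring. CTR offspring were born to dams on a diet with 17% protein, and GLLP offspring to dams on 6% protein during gestation and lactation. Glands were collected on postnatal day (PND) 21 from 4 CTR and 3 GLLP offspring and on PND540 from 5 CTR and 4 GLLP offspring, and each library held 28748604 to 39161666 counts. The labels name no strain and no litters, and p-values therefore measure only the spread among these libraries, which may share litters.

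Proteins bound for secretion enter the ER through the Sec61 channel, lose their signal peptide, and are folded by Hspa5 (BiP) and its partners while disulfide bonds are formed and exchanged. Proteins that do not fold are pulled back out and degraded, and folded ones leave in COPII vesicles. Load on this system is sensed by Ern1 (IRE1), Atf6 and the further sensor PERK, and the first pair act through Xbp1 and cleaved Atf6, which bind stress elements in the promoters of chaperone genes. The ventral prostate is a secretory gland whose luminal cells export large amounts of a few proteins, so these genes are normally active there.

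The stress elements are shown first. Since they occur in promoters of chaperone genes, as said above, matches in this set are not an independent finding. RefSeq's GRCr8 promoter table has 36 entries for 35 of the 44 genes; Pdia3, Pdia6, Manf, Sec61a1, Atf6, Ern1, Derl1, Sec24d and Kdelr2 are the other 9. The 250 bases before each annotated start were searched on both strands, allowing no mismatch. The ER stress element ERSE, CCAAT and CCACG with 9 bases of any kind (N) between them, was found in 9 of 36 entries (25%) and in 22 of all 33469 (0.0657%). ERSE-II, ATTGG and CCACG with 1 such base between them, was in 2 entries (5.56% against 0.0418% of all), and the UPRE, TGACGTGG, in 2 (5.56% against 0.52%). Shorter or related strings were also searched, and the strings given room here were picked after the matches had been seen. CRE, TGACGTCA, was in 0 of 36 entries (1.59% of all), TGACGTG in 3 (8.33% against 1.54%), CCACG in 23 (63.9% against 27.2%) and CCAAT in 27 (75% against 34%). These overlap: an ERSE holds a CCAAT and a CCACG, an ERSE-II holds a CCACG and the reverse of a CCAAT, and a UPRE holds TGACGTG. A match describes letters in this window only.

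The matches below carry the element in capitals, with up to 10 bases on each side, 5′ to 3′ on the strand named (GRCr8). In the 7 lines that begin the set the spacing between the capitals' ends is that of an ERSE, and the bases in between differ from gene to gene. Herpud1 gives the shorter ERSE-II. Dnajb9 has no exact ERSE, and its CCACG and CCAAT are shown for contrast.
Hspa5 (chr3:38452963-38453001, + strand): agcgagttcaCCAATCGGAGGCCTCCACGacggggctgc
Hsp90b1 (chr7:23012337-23012375, + strand): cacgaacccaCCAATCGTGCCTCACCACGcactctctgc
Calr (chr19:40213125-40213163, - strand): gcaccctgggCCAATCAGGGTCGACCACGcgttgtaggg
Dnajc3 (chr15:102432524-102432562, + strand): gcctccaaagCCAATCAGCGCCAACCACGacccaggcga
Creld2 (chr7:121789229-121789267, - strand): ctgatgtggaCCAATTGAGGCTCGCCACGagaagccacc
Ero1b (chr17:92941448-92941486, - strand): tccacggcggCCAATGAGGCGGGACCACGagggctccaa
Xbp1 (chr14:84604548-84604586, + strand): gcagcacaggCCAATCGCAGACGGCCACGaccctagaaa
Herpud1 (chr19:10614811-10614841, - strand): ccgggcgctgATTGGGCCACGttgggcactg
Dnajb9, CCACG (chr6:67002142-67002166, - strand): caacagttttCCACGtgcgcgtagg
Dnajb9, CCAAT (chr6:67002099-67002123, - strand): ccgacgggagCCAATggggaagcgt

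Hsp90b1 has a second ERSE farther from its start, Hyou1 has 2 ERSE-II matches of which 1 overlaps its UPRE, Derl3 has an ERSE, and Kdelr3 has a UPRE. The ERSE nearest to a start is that of Hspa5, which ends 25 bases before it, and the farthest is that of Calr, which ends 214 bases before it. Creld2, whose levels come up below, is given with all 250 bases before its start on the gene's strand (chr7:121789134-121789383, + strand), so its ERSE reads in reverse and in capitals.
Creld2 promoter: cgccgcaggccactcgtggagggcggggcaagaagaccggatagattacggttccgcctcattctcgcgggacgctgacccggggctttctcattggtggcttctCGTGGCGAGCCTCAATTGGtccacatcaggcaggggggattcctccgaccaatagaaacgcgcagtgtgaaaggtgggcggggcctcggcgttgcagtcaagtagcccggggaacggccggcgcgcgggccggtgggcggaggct

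**Figure D1:**
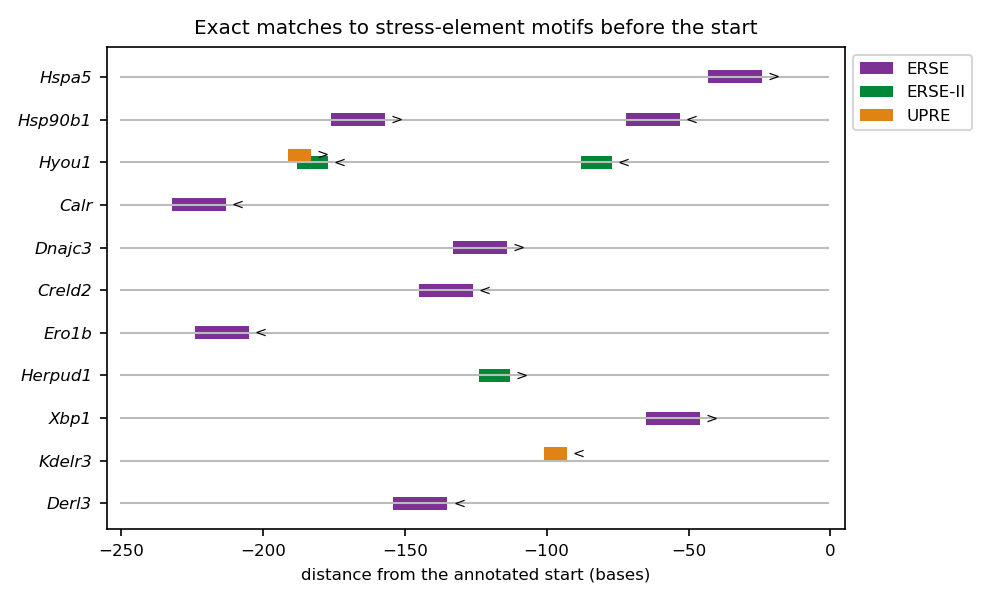
Positions of exact ERSE, ERSE-II and UPRE matches in the 250 bases before the annotated start of the genes shown; the x axis is the distance from the start in bases and an arrow gives the strand relative to the gene. Matches lie between 25 and 214 bases before the start for the ERSE genes plotted, 8 of the 9, and Hsp90b1 and Hyou1 have more than 1.

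Some libraries stood apart before any comparison was made. At PND540, CTR replicate 5 fell outside the range set by the remaining 8 libraries for 23 of the 43 tested genes (12 below, 11 above), which is 53.5% of them against 70.3% of 13323 genes tested. Sec24d was 33.2-fold, Spcs3 13.9-fold and Ssr3 10.9-fold below the median of the other 8 there, and Manf was 3.98-fold and Sec61g 3.16-fold above it. At PND21, CTR replicate 1 had 0.282% of its counts in mitochondrial genes against 3.66% to 5.02% in the other 6 libraries. The 43 genes took 2.15% to 2.9% of a library's counts at PND21 and 1.36% to 2.49% at PND540.

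Luminal epithelial markers were present in every library, with a summed level of 3428 to 10830 CPM, and the 8 of 10 markers of ventral prostate secretion found in both tables summed to 18730 to 109800 CPM. CPM, a gene's share of its library's counts, was scaled by TMM over all 16 libraries throughout and is a level, which is compared between libraries for 1 gene and not between genes. In bulk tissue, fewer cells of a type and less RNA per cell cannot be told apart.

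At PND21 the levels of 42 of the 43 genes were lower in GLLP than in CTR, with a median log2 fold change of -0.32, and none passed the test. The median over all 14915 genes tested was 0.00, and 50.5% of them had a negative value. With edgeR's quasi-likelihood test and an adjusted p under 0.05, 0 of the 43 were called higher (1.01% of all genes) and 0 lower (0.107% of all genes); the smallest adjusted p among them was 0.101. At an unadjusted p under 0.05, 25 of the 43 (58.1%) were lower, against 8.39% of all genes. The number of the 43 with such a p, in either direction, depended on single libraries and on the scaling. It was 25 with every library (2873 of 14915 genes) and 32 without GLLP replicate 2 (4486 of 15147). Without GLLP replicate 3 or 4 it was 11 (1719 of 15082) or 19 (2710 of 15134). Without CTR replicate 1 or 2 it was 14 (2118 of 14818) or 16 (2234 of 14785). Without CTR replicate 3 or 4 it was 27 (2605 of 14804) or 17 (2122 of 14818). DESeq2 gave 30 (3076 of 14915). Library sizes alone gave 7 (3547 of 14915), a smaller share than over all genes. Fitting the ages together gave 2 (479 of 14178), a share close to that over all genes. For 17 of the 43 (39.5%) every GLLP library lay below every CTR library, against 7.6% of all genes.

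Dnajb9, a DnaJ cofactor of Hspa5, had the largest difference on the log2 scale. Its 4 CTR libraries were at 177, 143, 122 and 150 CPM and its 3 GLLP libraries at 112, 60.0 and 53.0 CPM. The groups did not overlap, and GLLP replicate 2 lay close to the CTR range. The log2 fold change was -0.98 (SE 0.25), with an edgeR adjusted p of 0.106. Creld2, an ER protein with disulfide isomerase activity, was at 524, 436, 395 and 523 CPM in CTR and 358, 265 and 349 CPM in GLLP. All 3 GLLP values were lower than the lowest CTR value (log2 fold change -0.53, SE 0.15, edgeR adjusted p = 0.11). Dnajb11, another cofactor of Hspa5, was at 300.2, 293, 255 and 288 CPM in CTR and 246, 193 and 228 CPM in GLLP, for a log2 fold change of -0.35 (SE 0.11, edgeR adjusted p = 0.142). Its closest libraries, CTR replicate 3 and GLLP replicate 2, were only a little apart. Hspa5 itself, the main ER chaperone, was added after its values were seen: it was at 3126, 2850, 2484 and 3599 CPM in CTR and 2470, 1888 and 2040 CPM in the GLLP libraries (log2 fold change -0.50, SE 0.16, edgeR adjusted p = 0.151). Here the lowest CTR and the highest GLLP library nearly met. The 11 chaperones ranged from -0.98 to -0.15 with a median of -0.37.

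The disulfide enzymes were all lower in GLLP by value, with a median log2 fold change of -0.30 over 6 genes. Pdia3, a disulfide isomerase for glycoproteins, was at 3278, 2965, 2714 and 2879 CPM in CTR and 2630, 2196 and 2332 CPM in GLLP, without overlap (log2 fold change -0.31, SE 0.12, edgeR adjusted p = 0.215). Erp44, which retains proteins in the early secretory pathway, was at 281, 271, 256 and 262 CPM in CTR and 249, 203 and 199.6 CPM in GLLP, also without overlap (log2 fold change -0.30, SE 0.10, edgeR adjusted p = 0.166). Ero1b, the oxidase that recharges disulfide isomerases, was at 68.1, 63.1, 58.0 and 64.3 CPM in CTR and 65.2, 34.0 and 27.8 CPM in GLLP. Only GLLP replicates 3 and 4 were low for Ero1b, and replicate 2 lay inside the CTR range (log2 fold change -0.58, SE 0.25, edgeR adjusted p = 0.257).

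Among the translocon and signal peptidase genes, all 12 had values below 0 and the median was -0.26. Sec11c, a catalytic subunit of signal peptidase, was at 784, 815, 702 and 676 CPM in CTR and 626, 494 and 517 CPM in GLLP. These groups did not overlap (log2 fold change -0.44, SE 0.12, edgeR adjusted p = 0.109). Ssr3, a subunit of the translocon-associated TRAP complex, was at 367, 337, 313 and 400.3 CPM in CTR and 301.2, 239 and 249 CPM in GLLP. GLLP replicate 2 was again the closest to CTR (log2 fold change -0.43, SE 0.12, edgeR adjusted p = 0.115). Spcs3, an accessory subunit of signal peptidase, was at 644, 610.3, 538 and 752 CPM in CTR and 603, 375 and 335 CPM in GLLP, with GLLP replicate 2 inside the CTR range (log2 fold change -0.54, SE 0.20, edgeR adjusted p = 0.207).

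The 7 tested degradation genes had a median of -0.30 and no positive value. Syvn1 (HRD1), the ubiquitin ligase of ER degradation, was at 373, 349, 319.9 and 383 CPM in CTR and 277, 271 and 290 CPM in GLLP. The 3 GLLP libraries lay close together and below all of CTR (log2 fold change -0.35, SE 0.09, edgeR adjusted p = 0.106). Derl2, which helps pull proteins out of the ER, had the smallest adjusted p of the set: 81.6, 75.5, 76.3 and 78.0 CPM in CTR against 66.1, 61.9 and 61.9 CPM in the GLLP libraries (log2 fold change -0.30, SE 0.08, edgeR adjusted p = 0.101). Sel1l, the partner of Syvn1, was at 476, 436, 489 and 549.7 CPM in CTR and 484, 285 and 276 CPM in GLLP, so replicates 3 and 4 alone were low (log2 fold change -0.48, SE 0.19, edgeR adjusted p = 0.226). Edem1, a lectin that marks misfolded glycoproteins for degradation, was added after its values were seen. It was at 327, 438, 427 and 706 CPM in CTR and 326, 255 and 197 CPM in GLLP, with the edges of the groups almost touching (log2 fold change -0.87, SE 0.26, edgeR adjusted p = 0.146).

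Xbp1, the transcription factor that drives many of these genes, showed little difference by diet at PND21. It was at 298, 299, 292 and 296 CPM in CTR and 321, 284 and 264 CPM in GLLP, and the groups overlapped (log2 fold change -0.03, 95% interval -0.20 to 0.14, edgeR adjusted p = 0.88). This value is for all Xbp1 transcripts; spliced and unspliced forms were not counted apart. Atf6, a membrane-bound sensor, was at 94.0, 82.0, 86.5 and 118 CPM in CTR and 93.8, 68.9 and 43.7 CPM in the GLLP libraries (log2 fold change -0.47, SE 0.23, edgeR adjusted p = 0.309). Ern1, the sensor that splices Xbp1 mRNA, was at 291, 302.2, 325 and 352 CPM in CTR and 321, 224 and 156 CPM in the GLLP libraries (log2 fold change -0.44, SE 0.21, edgeR adjusted p = 0.278). For both sensors GLLP replicate 4 was the lowest library and replicate 2 lay inside the CTR range.

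Of the transport factors, Lman1 (ERGIC-53) is a cargo receptor for glycoproteins. It was at 177, 164, 167 and 217 CPM in CTR and 153, 106 and 102 CPM in GLLP. These groups did not overlap (log2 fold change -0.58, SE 0.16, edgeR adjusted p = 0.112). Sec24d, a cargo-binding subunit of the COPII coat, was at 261, 243, 254 and 341 CPM in CTR and 236, 198 and 167 CPM in GLLP, also without overlap (log2 fold change -0.45, SE 0.15, edgeR adjusted p = 0.167). Both KDEL receptors, which return ER proteins from the Golgi, gave values close to 0: Kdelr2 was at 172, 167, 159.7 and 181 CPM in CTR and 154, 175 and 167 CPM in the GLLP libraries (log2 fold change -0.03, 95% interval -0.20 to 0.13, edgeR adjusted p = 0.843). Kdelr3 was the only one of the 43 with a positive value (0.08, SE 0.11, edgeR adjusted p = 0.715).

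**Figure D2:**
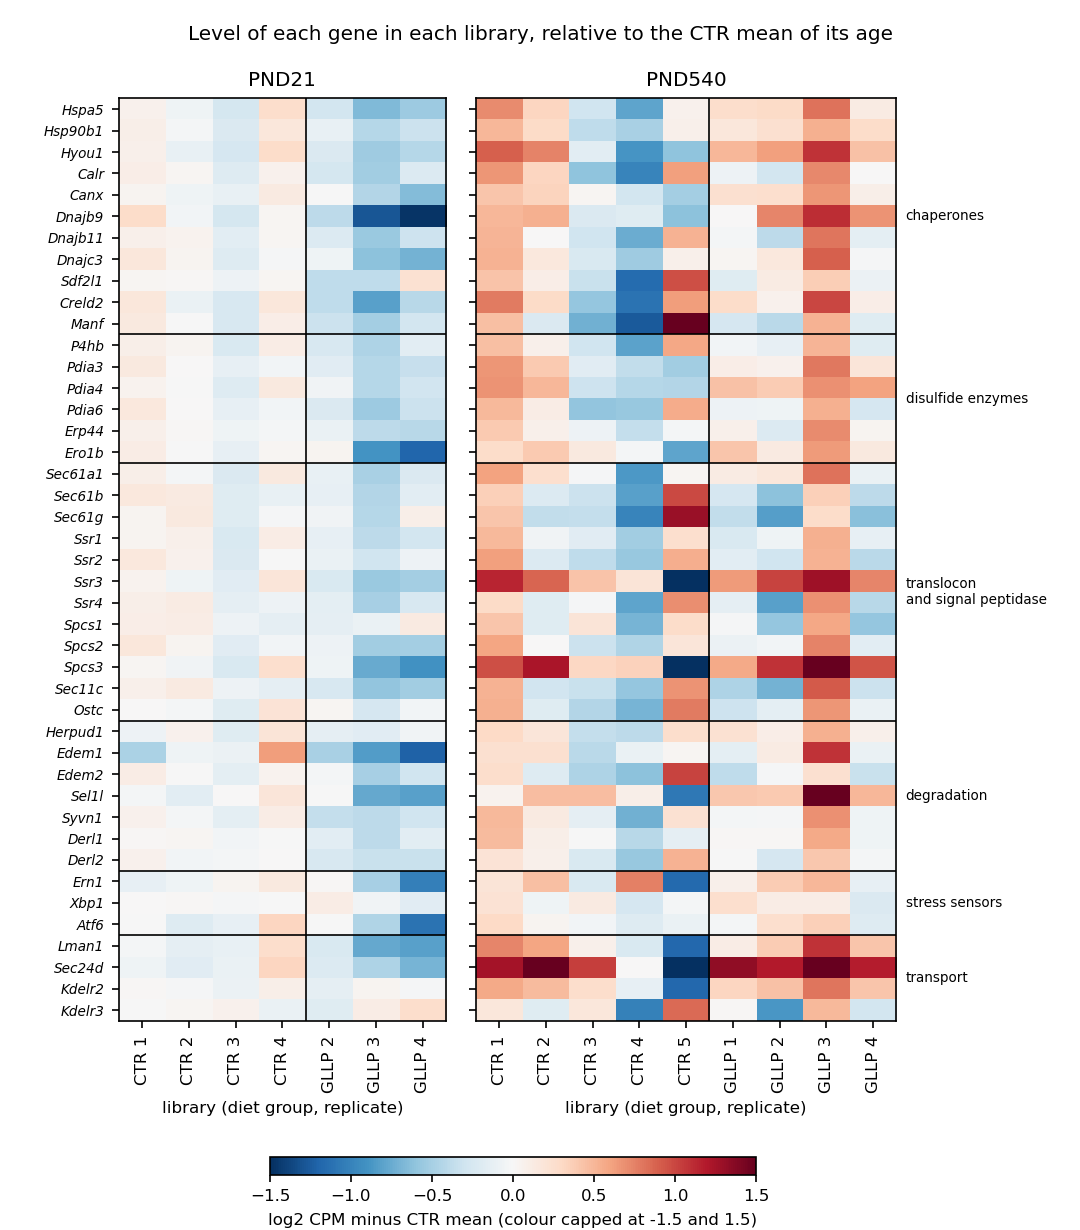
Level of each tested gene (lines, grouped by role) in each library (columns), as log2 CPM minus the mean log2 CPM of the CTR libraries of the same age; blue is lower, red is higher, and the colour is capped at -1.5 and 1.5. GLLP replicates 3 and 4 are mostly blue at PND21, and GLLP replicate 3 is mostly red at PND540, where CTR replicate 4 is mostly blue.

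The 3 GLLP libraries did not contribute alike, as the map of levels by library shows. Relative to the CTR mean, the median gene of the set was at -0.14 in GLLP replicate 2, -0.46 in replicate 3 and -0.32 in replicate 4 (log2), against -0.15 to 0.09 in the CTR libraries. GLLP replicate 3 had the lowest of the 7 values for 24 of the 43 genes, and was lowest for 11.6% of 13361 genes tested. Replicate 4 was lowest for 14 (30.1% of genes tested) and replicate 2 for 4 (12.3%). Without GLLP replicate 2, edgeR called 18 of the 43 lower (4.71% of all genes), among them Hspa5, Dnajb9, Creld2, Erp44, Ero1b, Ssr3, Spcs3, Sec11c, Sel1l, Derl2, Ern1, Lman1 and Sec24d. With all 7 libraries DESeq2 called 9 lower (2.02% of all genes): Hspa5, Dnajb9, Creld2, Ssr3, Sec11c, Edem1, Syvn1, Derl2 and Lman1.

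Markers of other cells moved with diet at PND21. All 8 skeletal muscle markers were called higher in GLLP, their summed level being 386 to 679 CPM there and 13.1 to 19.7 CPM in CTR. The 8 secretory markers found in both tables summed to 26170 to 35960 CPM in GLLP and 42350 to 52680 CPM in CTR, and nearly all of that sum was Scgb1d2 and Scgb2a1. Of all 10 secretory markers tested at PND21, 5 had positive and 5 negative values (median log2 fold change 0.05). edgeR called 1 of them lower, Crisp3, which is not in the sum; DESeq2 called 3 lower, and at an unadjusted p under 0.05, 3 were lower and 1 higher. The 9 luminal markers were at 3428 to 3599 CPM against 3433 to 4036 CPM, with 0 called by edgeR or DESeq2; at an unadjusted p under 0.05, 1 was higher and 2 were lower. The 6 fibroblast markers summed to 5685 to 7150 CPM in GLLP and 3968 to 5876 CPM in CTR; edgeR called 0 of the 5 tested, 3 were higher at an unadjusted p under 0.05 and DESeq2 called 2 higher. Of 4 basal epithelial markers tested, edgeR called 0, while 2 were higher at an unadjusted p under 0.05 and by DESeq2; their sums were 648.5 to 1382 CPM in GLLP and 411.5 to 911 CPM in CTR. Macrophage markers summed to 131 to 175 CPM in GLLP and 87.5 to 149 CPM in CTR, with 0 of 7 called by edgeR, 3 higher at an unadjusted p under 0.05 and 1 higher by DESeq2. The sums of the fibroblast, basal and macrophage markers overlapped between the diets. The part of these shifts in the lower values of the folding genes was not tested. Plasma and B cell markers, the mark of another cell type rich in ER, summed to only 1.54 to 3.33 CPM over all 7 libraries. The luminal sum included 1 replicate of CTR within the GLLP range, and the muscle sums did not overlap.

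At PND540 none of these genes passed the test for diet. edgeR called 0 of the 43 (0% of 14767 genes higher and 0% lower), 0 of the 43 had an unadjusted p under 0.05 (0.21% of all genes higher, 0.623% lower), and DESeq2 called 0 of them and 2 genes in all. The median log2 fold change was 0.12 with 28 positive and 15 negative values; over all genes the median was 0.00 and 50.0% were positive. For all 43 the groups overlapped, while 0.183% of all genes were higher in GLLP without overlap and 0.21% lower. The direction depended on single libraries: without GLLP replicate 3 the median was -0.05, with 16 positive and 27 negative values. Without CTR replicate 4 it was 0.05, against 0.03 over all genes, with 25 positive and 18 negative values. The intervals were wide: for Creld2 the 95% interval ran from -0.55 to 1.03, which includes its value at PND21.

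**Figure D3:**
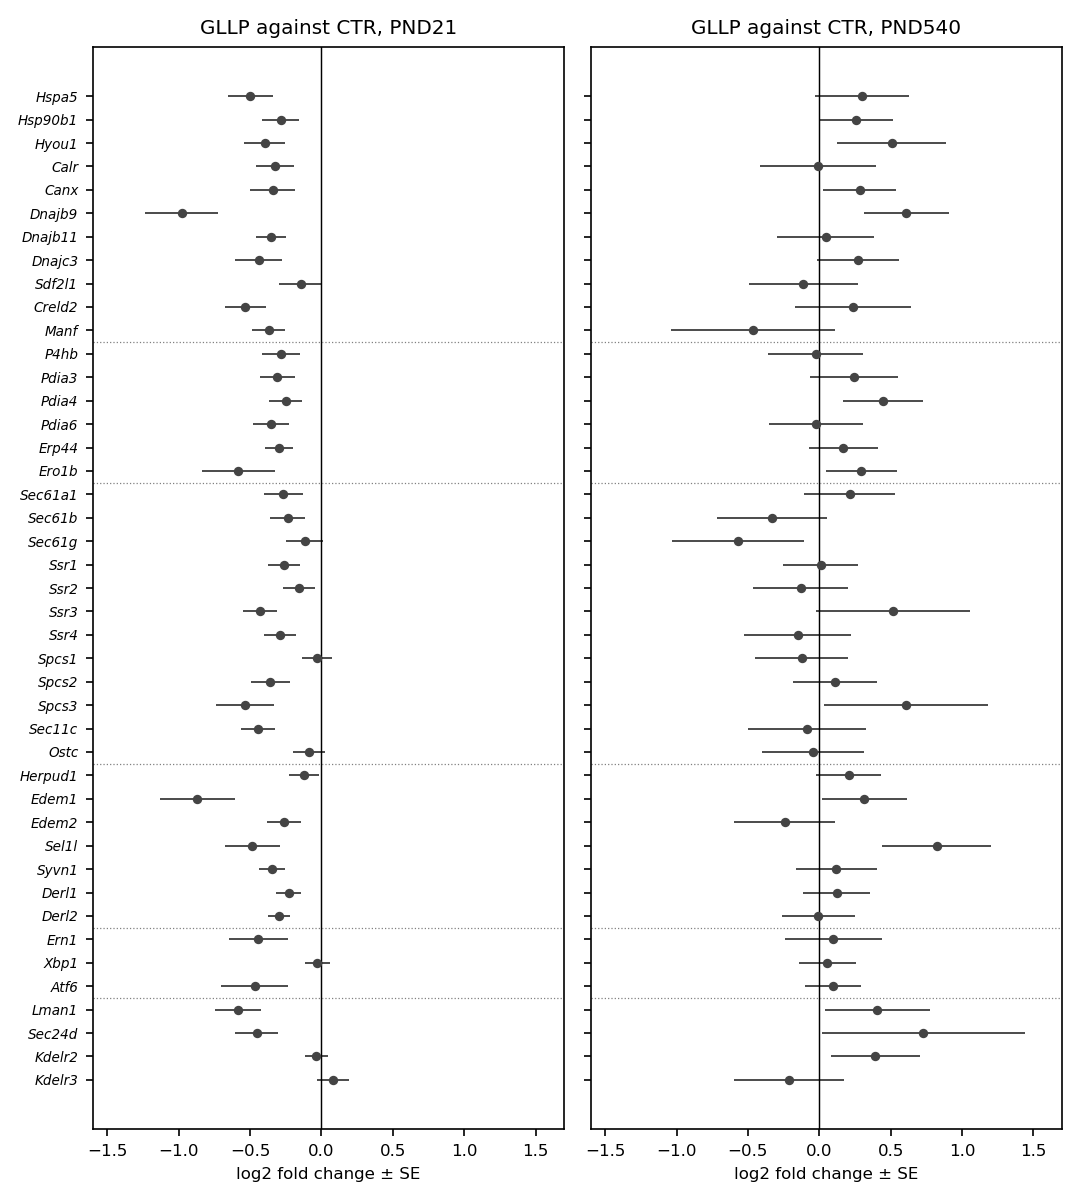
Log2 fold change of GLLP against CTR (point) and its standard error (line) for each tested gene at PND21 and at PND540, in the order of the roles, with dotted lines between roles. At PND21 the points run from -0.98 to 0.08 with all but Kdelr3 below 0, and at PND540 they run from -0.57 to 0.82 with wider errors.

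The genes varied more between old animals than between young ones. The median standard deviation of log2 CPM over the 43 was 0.56 in CTR at PND540 (0.48 over 12680 genes) and 0.39 in GLLP (0.27), against 0.14 in CTR (0.13) and 0.18 in GLLP (0.19) at PND21. Without CTR replicate 5 the value at PND540 was 0.48 for the 43 genes and 0.24 for all. GLLP replicate 3 had the highest of 9 values for 29 of the 43 genes and was highest for 11.9% of all; CTR replicate 4 had the lowest for 26 and was lowest for 7.24% of all. With CTR replicate 5 set aside, GLLP replicate 3 was highest of 8 for 37 and CTR replicate 4 lowest for 34. The share over all genes was not computed for these 8 libraries, so the rise in these counts cannot be judged. Secretory markers summed to 87630 CPM in GLLP replicate 3 and 23550 CPM in CTR replicate 4. GLLP replicate 2, at 18730 CPM, was lowest for only 2 of the 43. CTR replicate 3 and GLLP replicate 1 had still higher sums, 109800 and 96510 CPM, but were highest for only 0 and 1 of the 43. Plasma and B cell markers summed to 4.95 CPM in GLLP replicate 3 and 15.4 CPM in CTR replicate 4, and were highest in CTR replicate 1 at 82.7 CPM.

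Single genes show that spread. Sel1l was at 238, 318, 318, 246 and 110.1 CPM in CTR and 306, 304, 794 and 326 CPM in GLLP at PND540. GLLP replicate 3 stood far above every other library, and CTR replicate 5 below (log2 fold change 0.82, SE 0.38, edgeR adjusted p = 0.914). Sec11c was at 799, 458, 443, 374 and 893 CPM in CTR and 406, 342, 1056 and 445 CPM in GLLP. Here the high libraries were GLLP replicate 3 and CTR replicates 1 and 5, so the ranges coincided (log2 fold change -0.09, SE 0.41, edgeR adjusted p = 0.962). Creld2 was at 420.3, 299.8, 164, 114 and 379.8 CPM in CTR and 296, 257, 492 and 263 CPM in GLLP. Its CTR libraries alone spanned most of the range (log2 fold change 0.24, SE 0.40, edgeR adjusted p = 0.914). Syvn1 was at 385, 302.4, 250.4, 167 and 321 CPM in CTR and 269.9, 272, 442 and 262 CPM in GLLP. GLLP replicates 1, 2 and 4 were nearly level and replicate 3 was high (log2 fold change 0.12, SE 0.28, edgeR adjusted p = 0.928). Dnajb9 was at 135, 138, 82.4, 84.5 and 62.5 CPM in CTR and 96.3, 159, 206 and 154 CPM in GLLP. GLLP replicates 2, 3 and 4 exceeded all 5 CTR libraries, and replicate 1 did not (log2 fold change 0.61, SE 0.30, edgeR adjusted p = 0.914).

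Age was compared within each diet group, and the tables set a limit to it. The PND21 and PND540 tables came with different gene annotations, so a difference in counting and a difference in age cannot be told apart. Of 19709 shared gene names, 18 had 0 counts in every PND21 library and at least 100 in every PND540 library, and 3 the reverse; none of the 44 genes is among them. Summed stromal markers also differed. Smooth muscle markers were at 3444 to 4363 CPM at PND21 and 566 to 1705 CPM at PND540, and fibroblast markers at 3968 to 7150 CPM and 67.0 to 595 CPM. Of the 6 fibroblast markers, Col1a2 went the other way and was called higher with age in both diet groups. It was at 0.03 to 0.13 CPM at PND21 and 0.23 to 9.40 CPM at PND540. The part of stroma in the age differences was not tested.

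In CTR, 3 of the 43 genes rose with age (17.3% of 13510 genes tested) and 4 fell (13.2%) by edgeR. These shares, 6.98% and 9.3%, were below those of all genes. Ero1b, Xbp1 and Atf6 rose, and Pdia3, Erp44, Spcs3 and Sel1l fell. The median of the 43 was -0.47 against 0.07 over all genes, with 35 negative values (46.1% of all genes). Old and young CTR libraries did not overlap for 3 genes that were higher in the old (18.8% of all genes) and 9 that were lower (18.9%). In GLLP, 6 rose (19.1% of 13694 genes) and 1 fell (17.1%): Dnajb9, Ero1b, Derl2, Xbp1, Atf6 and Lman1 rose and Spcs3 fell. The median was 0.01 against 0.02 over all genes, and 23 values were positive (51.3% of all genes). Old and young GLLP libraries did not overlap for 5 genes that were higher in the old (22.5% of all genes) and 1 that was lower (22.2%). Ero1b, Xbp1, Atf6 and Spcs3 passed the test in both diet groups.

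Xbp1 rose with age in both diet groups. From the PND21 values above it reached 660.4, 544, 626, 480 and 557 CPM in CTR and 681, 615, 614 and 489 CPM in GLLP at PND540. Every old library exceeded every young one. The log2 fold change was 0.96 (SE 0.15, edgeR adjusted p = 0.0012) in CTR and 1.04 (SE 0.17, edgeR adjusted p = 0.00142) in GLLP. Atf6 reached 223, 187, 176, 158 and 169 CPM in CTR and 178, 216, 233 and 158 CPM in GLLP, again with no overlap between ages. It rose 1.92-fold in CTR (SE 0.17 on the log2 scale, edgeR adjusted p = 0.00238) and 2.84-fold in GLLP (SE 0.26, edgeR adjusted p = 0.00204). Ern1 did not follow: it was at 286, 342, 215, 422 and 112 CPM in CTR and 265, 326, 355 and 231 CPM in GLLP at PND540. The old libraries straddled the young ones (log2 fold change -0.20, SE 0.33, edgeR adjusted p = 0.667 in CTR and 0.32, SE 0.25, adjusted p = 0.35 in GLLP).

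Ero1b rose the most. It reached 199, 216, 183, 162 and 95.4 CPM in CTR and 219, 182, 256 and 182 CPM in GLLP at PND540. Even CTR replicate 5, its lowest old library, was above all 7 young libraries. The log2 fold change was 1.43 (SE 0.23, edgeR adjusted p = 0.00138) in CTR and 2.30 (SE 0.30, edgeR adjusted p = 0.000497) in GLLP.

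Spcs3 fell the most. It was at 68.6, 82.6, 43.7, 44.8 and 4.89 CPM in CTR and 52.1, 74.4, 103 and 67.5 CPM in GLLP at PND540. All old libraries lay far below the young ones, and CTR replicate 5 was the lowest of all. The log2 fold change was -3.70 (SE 0.62, edgeR adjusted p = 0.00154) in CTR and -2.57 (SE 0.27, edgeR adjusted p = 0.000165) in GLLP. The other subunits of signal peptidase gave smaller values: Sec11c was at -0.33 (SE 0.28, edgeR adjusted p = 0.401) in CTR and 0.03 (SE 0.37, adjusted p = 0.961) in GLLP. Spcs1 and Spcs2, named here because they share a complex with Spcs3, ran from -0.29 to 0.18 over both diet groups, and neither was called.

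Pdia3, Erp44 and Sel1l were called lower with age in CTR. Pdia3 was at 2315, 1914, 1301, 1132 and 1013 CPM in old CTR animals, all below the young ones (log2 fold change -0.95, SE 0.27, edgeR adjusted p = 0.024). Erp44 was at 218, 175, 157, 129 and 162 CPM there, also without overlap (log2 fold change -0.67, SE 0.17, edgeR adjusted p = 0.0134). For Sel1l, whose old values were given above, the log2 fold change was -0.99 (SE 0.28, edgeR adjusted p = 0.0253). In GLLP these 3 genes gave log2 fold changes of -0.40 (SE 0.22), -0.21 (SE 0.22) and 0.30 (SE 0.38), and none was called. The call for Erp44 held in all 9 fits that left out 1 library. That for Pdia3 held in 5 and was lost without CTR replicate 1, 2 or 4 at PND21 or replicate 3 at PND540. That for Sel1l held in 4 of 9 fits, with adjusted p-values up to 0.0733.

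Dnajb9, Derl2 and Lman1 were called higher with age in GLLP. Lman1 went to 203, 245, 399 and 251 CPM in old GLLP animals, above all young GLLP libraries (log2 fold change 1.17, SE 0.26, edgeR adjusted p = 0.00678), and the call held in all 7 fits that left out 1 library. Dnajb9 gave 1.03 (SE 0.32, edgeR adjusted p = 0.032) with overlapping groups, and the call held in 3 of 7 fits. Derl2, at 87.2, 73.8, 117 and 85.9 CPM in old GLLP animals, gave 0.51 (SE 0.17, edgeR adjusted p = 0.0388) and held in 2 of 7. In CTR the log2 fold changes of Lman1, Dnajb9 and Derl2 were 0.20 (SE 0.34), -0.55 (SE 0.26) and 0.22 (SE 0.21), and none was called. Without GLLP replicate 3 at PND540, 6 of the 43 were called lower with age in GLLP (16.6% of all genes), in place of 1: Dnajb11, Pdia3, Sec61b, Spcs3, Ostc and Kdelr2. Without CTR replicate 5 at PND540, 11 were called lower with age in CTR (23% of all genes), in place of 4, and the 3 that rose remained called.

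**Figure D4:**
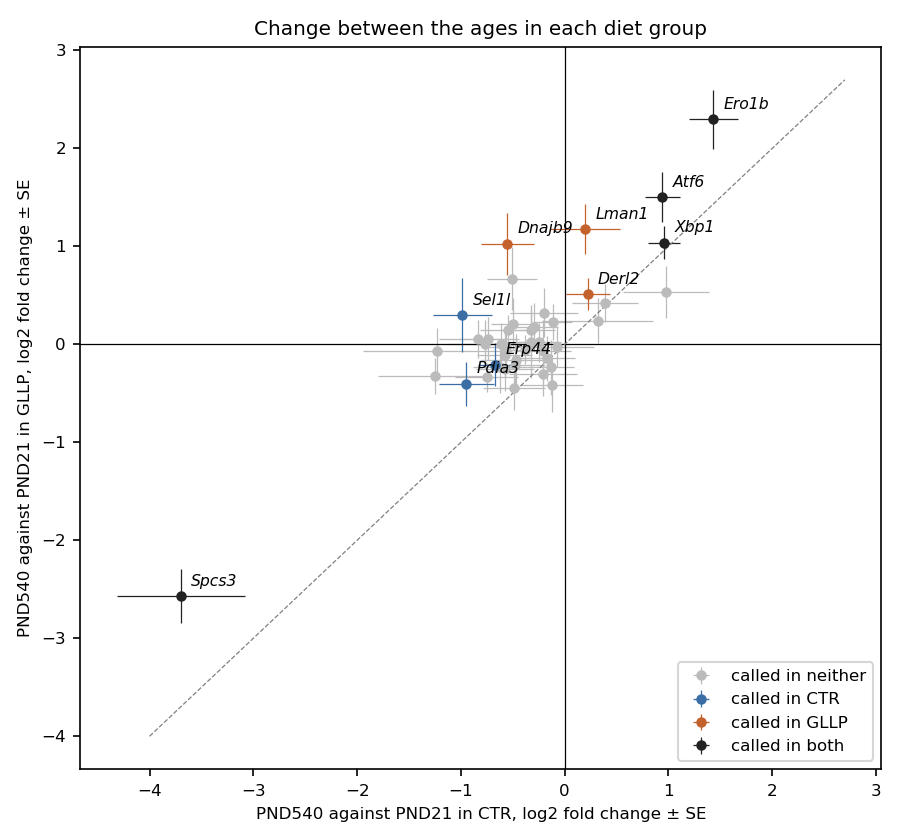
Log2 fold change of PND540 against PND21 in CTR (x axis) and in GLLP (y axis), with standard errors, for the 43 tested genes; colour gives the diet groups in which edgeR called the gene and the dashed line marks equal change. Ero1b, Atf6 and Xbp1 lie to the upper right, Spcs3 to the lower left, and 38 of 43 points lie above the line.

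Whether the diet difference depended on age was tested by the interaction, the diet difference at PND540 minus that at PND21. edgeR called 0 of the 43 (0% of 14178 genes higher and 0.0917% lower), and DESeq2 called 0 of them. The values were positive for 38 of 43 (48.0% of all genes) with a median of 0.47, against -0.03 over all genes, and 4 of the 43 had an unadjusted p under 0.05 (1.35% of all genes higher, 3.82% lower), all of them with positive values. Dnajb9 had the smallest p, with an interaction of 1.59 on the log2 scale (SE 0.43, unadjusted p = 0.00216, edgeR adjusted p = 0.556). It was followed by Edem1 at 1.19 (SE 0.43), Sel1l at 1.30 (SE 0.51) and Ero1b at 0.88 (SE 0.38), each with an edgeR adjusted p of 0.738. For Xbp1 the interaction was 0.10 (95% interval -0.32 to 0.51). Without GLLP replicate 3 at PND540 the median over the 43 was 0.25. In place of 4 (733 of 14178 genes in either direction), the number with an unadjusted p under 0.05 was 2 without that library (450 of 14157). It was also 2 without GLLP replicate 3 (425 of 14350) or 4 (357 of 14361) at PND21. Without GLLP replicate 2 at PND21 it was 9 (1002 of 14380). It was 12, 8 and 7 without CTR replicate 1, 2 and 5 at PND540 (930 of 14153, 1149 of 14150 and 962 of 14141). The diet differences at the ages and the age differences in the diet groups use the same libraries, so they are not independent of each other or of this interaction.

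**Figure D5:**
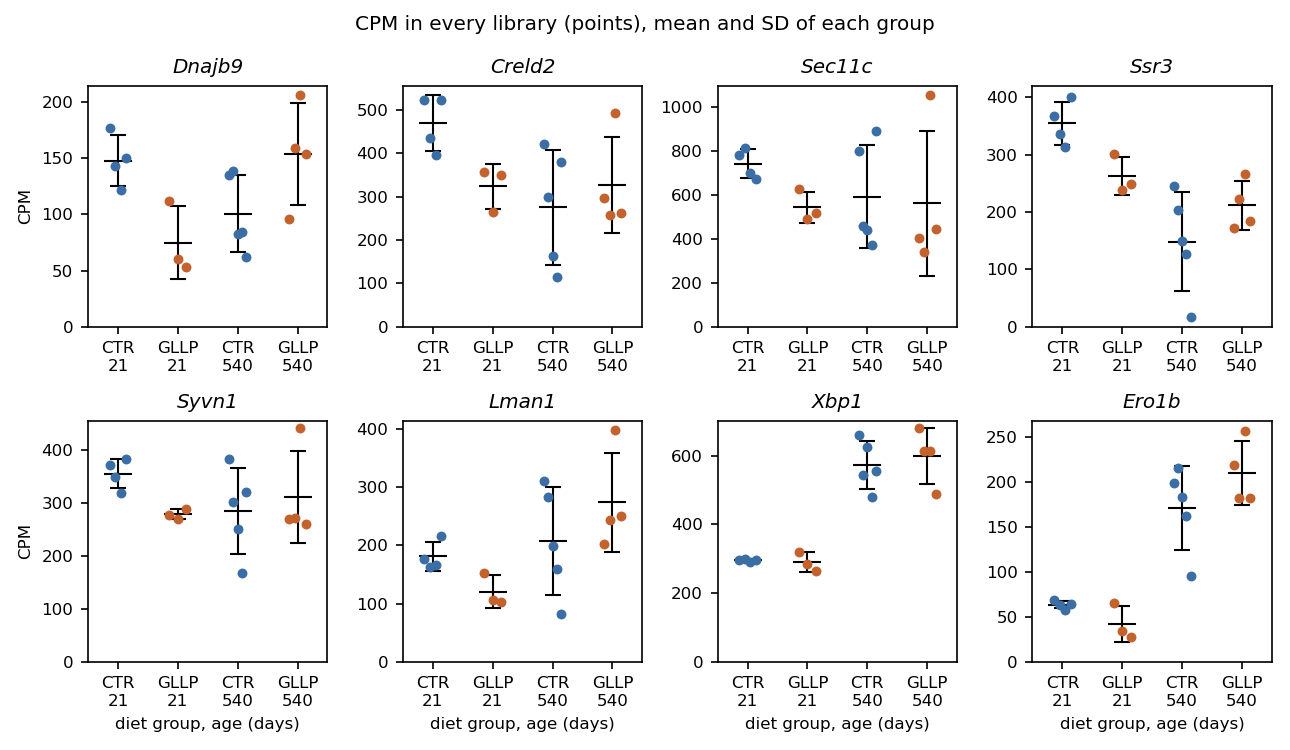
CPM of 8 genes in every library (points), with the mean and standard deviation of each group (bars), for CTR (blue) and GLLP (orange) at 21 and 540 days; each panel has its own axis from 0. Dnajb9, Creld2, Sec11c, Ssr3, Syvn1 and Lman1 have separate groups at 21 days and overlapping groups at 540 days. Xbp1 and Ero1b are higher at 540 days in both diet groups. The 8 genes were picked from those named in the text and do not stand for the set. Of all 43 tested genes, 17 (39.5%) had separate diet groups at 21 days in the fit.

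The genes were also described by whether the promoter holds a stress element. Between diets at PND21 the 10 tested genes with an exact ERSE or ERSE-II had a median log2 fold change of -0.37 (10 of 10 negative), and the 24 with a promoter entry but neither element had -0.29 (23 of 24 negative). Dnajb9, which has neither, had the lowest value of all, and Xbp1 and Ero1b, which each have an ERSE, stood at -0.03 and -0.58. Between diets at PND540 the medians were 0.26 (1 of 10 negative) and 0.00 (12 of 24 negative), and for the interaction 0.67 (0 of 10 negative) and 0.34 (4 of 24 negative). With age the medians were -0.53 and -0.31 in CTR and 0.03 and 0.00 in GLLP. No test was made on these groups.

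Other genes of the same pathways, from lists that include none of the 44, were looked at in the same fits. At PND21 edgeR called 0 of 113 by diet (1.01% of all genes higher, 0.107% lower). At an unadjusted p under 0.05, 35 were lower and 5 higher. Over all genes 8.39% were lower at that threshold, and 2873 of 14915 had such a p in either direction. DESeq2 called 10 lower (2.02% of all genes) and 3 higher (4.5% of all genes). Negative values were found in 23 of 26 tested genes of vesicle transport (median -0.21), in 15 of 17 of degradation (-0.21), in 15 of 17 of targeting and translocation (-0.19), in 13 of 16 of N-glycosylation (-0.16) and in 14 of 20 of other folding and redox genes (-0.24). The PERK branch and other stress regulators were split, with 9 of 17 negative (median -0.02). The genes with the smallest p in these lists include Nploc4, a cofactor of the Vcp extraction complex (-0.42, SE 0.09, edgeR adjusted p = 0.0708), and Vcp itself (-0.42, SE 0.12, adjusted p = 0.115). Ergic2 and Surf4, which carry cargo between the ER and Golgi, gave -0.40 (SE 0.10) and -0.41 (SE 0.12). Sec63, a partner of the Sec61 channel, gave -0.44 (SE 0.13) and Magt1, a subunit of the oligosaccharyltransferase, gave -0.51 (SE 0.14). The peroxiredoxin Prdx4 went the other way by value (0.52, SE 0.14, edgeR adjusted p = 0.104), as did Creb3l1 and Creb3l4, membrane-bound relatives of Atf6 (0.42, SE 0.11 and 0.45, SE 0.13).

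With age, the degradation genes that rose in GLLP included Ube2j1, an ubiquitin-conjugating enzyme (log2 fold change 1.15, SE 0.15, edgeR adjusted p = 0.000544), Edem3 (1.78, SE 0.44), Erlec1 (0.48, SE 0.16) and Herpud2 (0.48, SE 0.15), and 0 of 15 tested fell. In CTR 2 of the 15 rose, Edem3 (0.74, SE 0.25) and Ube2j1 (0.71, SE 0.17). In GLLP, 3 of 20 other folding and redox genes rose and 2 fell, while in CTR 0 rose and 3 fell. Prdx4 fell in both diet groups (log2 fold change -0.86, SE 0.18 in CTR and -1.59, SE 0.20 in GLLP), and so did the prolyl isomerase Fkbp7 (-1.51, SE 0.26 and -1.65, SE 0.31). Of 16 N-glycosylation genes, 3 fell in CTR, and 2 rose and 2 fell in GLLP. Magt1 (-2.20, SE 0.19 in CTR and -1.37, SE 0.22 in GLLP) and Gfpt1, the entry enzyme of the hexosamine pathway (-1.13, SE 0.24 and -1.07, SE 0.16), fell in both. Of 17 stress regulators, Atf3, an induced stress transcription factor, rose in both (2.23, SE 0.41 in CTR and 1.67, SE 0.39 in GLLP). Eif2ak3 (PERK) and Creb3l2 rose in GLLP by 0.61 (SE 0.14) and 1.03 (SE 0.32), and Creb3l1 and Creb3l4 fell there by 0.64 (SE 0.16) and 1.17 (SE 0.30). Of 17 targeting genes, 2 rose and 3 fell in CTR, and 3 rose and 0 fell in GLLP; Srp14, a subunit of the signal recognition particle, had the largest value (3.30, SE 0.27 in CTR and 3.22, SE 0.19 in GLLP). Of 27 vesicle transport genes, 1 rose and 2 fell in CTR, and 2 rose and 2 fell in GLLP. Preb, which was called higher in both, is listed at 0 in all 7 young libraries and at 59.4 to 189 CPM in the old ones, so no fold is given. Of the genes of these 6 lists, edgeR and DESeq2 called 0 by diet at PND540. There 0 of 119 had an unadjusted p under 0.05 (0.21% of all genes higher, 0.623% lower). Both also called 0 of 112 for the interaction. There 4 had an unadjusted p under 0.05 with a positive value (1.35% of all genes) and 1 with a negative value (3.82%).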

How the data were processed

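Per the file headers and values, the authors deposited unnormalized whole-number read counts, with a separate table for each age. The submitters' processing notes name STAR, edgeR 3.34.0 and Rnor_6.0. The counting tool, annotation and strand setting were not given in the sources used here, so overlapping or antisense genes may share reads. Here, edgeR 4.0.16 (R 4.3.3) was run on the counts with filterByExpr, TMM, robust quasi-likelihood fits and tests, Benjamini-Hochberg adjustment over all genes tested and a threshold of 0.05, without a replicate block. Diet effects were fitted within an age; age effects and the interaction used the 19709 gene names in both tables. Printed CPM use 1 TMM scale over all 16 libraries and the shared gene names that passed the filter; fold changes come from each comparison's own fit. Approximate 95% intervals are the log2 fold change ± 1.96 SE. Depth was 28748604 to 39161666 counts per library, and replicate pairs differed far beyond sampling noise. The fitting was tested on simulated data with known 1.5-fold, 2-fold and 4-fold changes. For diet at PND21 edgeR recovered 26.2%, 53% and 91.3% of them, and for diet at PND540 0%, 1.79% and 44.4%. For age it recovered 0%, 4.69% and 76.4% in CTR and 0%, 28.4% and 72.7% in GLLP. For the interaction the shares were 0%, 3.12% and 23.5%. A gene that was not called may therefore still differ.

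The genes, the pathway and marker lists and the naming rule were chosen with earlier results of these data known. The rule took, per role, the 3 genes with the smallest p in any of 5 comparisons plus every called gene where a comparison called 10 or fewer, and 2 genes per pathway list and comparison. Genes named outside it are said to be so, or are further called genes of a list or the genes of a count, chosen after their values were seen. Alternatives were RLE normalization, unscaled library sizes, DESeq2 1.42.0, a filter at 1 count in place of filterByExpr, a filter at 1 CPM, a joint fit for the diet effects, a replicate block, and leaving out each library. Promoters come from RefSeq's GRCr8 table. One ERSE match and 1 pathway gene are not reported here. Figures were drawn with matplotlib 3.10.9.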

Additional observations from a re-analysis of the deposited data

Results flagged for a closer look

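Within groups of 4 or 5 libraries, a library was singled out where its gap to the nearest other was large against the whole range of its group (Dixon's criterion at 95%). Of 54 groups of values, 18 genes in 3 groups, 6 had such a library, and each time it was GLLP replicate 3 at PND540, on the high side. Chance alone singles out about 1 in 20. Sel1l was at 794 CPM there and at 304 to 326 CPM in the other 3 GLLP libraries, and Syvn1 at 442 CPM against 262 to 272 CPM. Sec11c was at 1056 CPM against 342 to 445 CPM, and Creld2 at 492 CPM against 257 to 296 CPM. Pdia3 was at 2523 CPM against 1531 to 1660 CPM, and Sec24d at 282 CPM against 157 to 175 CPM. The 6 values come from 1 library and are not independent of each other.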

How the results depend on the processing

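For the 18 genes taken by the naming rule, which leaves out Hspa5 and Edem1, 1440 results under an alternative were compared with those reported: 1380 stayed on the same side of the threshold, 21 fell out of it, 39 came into it, and 0 reversed, counting a reversal only where 1 of the values was called. At PND21, 166 genes were called in all; library sizes alone gave 650, DESeq2 972, the joint fit of both ages 40, and leaving out 1 library 62 to 1509 (1509 without GLLP replicate 2, and 62 to 75 without GLLP replicate 3 or any 1 CTR library). The called genes of the set, 0 there, became 9 lower with DESeq2 (2.02% of all genes) and 0 to 18 with a library left out (18 without GLLP replicate 2, 4.71% of all genes). Their median log2 fold change was -0.187 with library sizes alone, which moved the median of all genes to 0.14, and -0.39 to -0.26 with a library left out. At PND540 DESeq2 called 2 genes in all, and the median over the set ranged from -0.05 (without GLLP replicate 3) to 0.26 with a library left out. With age in CTR, 9 genes of the set were lower with library sizes alone (13.5% of all genes), which moved the median of all genes from 0.07 to -0.05, 7 with DESeq2 (16.8%), and 2 to 11 with a library left out (2 without CTR replicate 1, 2 or 4 at PND21, with 9.63% to 10.1% of all genes, 7 without replicate 1 at PND540, with 11.8%, and 11 without replicate 5 there, with 23%). The genes called there in all, 4117 with every library, ranged from 3040 to 6574 (6574 without CTR replicate 5 at PND540), and the median over the set from -0.56 to -0.33. With age in GLLP, 5 were lower with library sizes alone (21.3% of all genes, whose median was -0.16) and 1 to 6 with a library left out (6 without GLLP replicate 3 at PND540, 16.6% of all genes), and the median over the set ranged from -0.16 to 0.10. For the interaction DESeq2 called 46 genes in all, against 13 with edgeR, and leaving out a library 7 to 16 (7 or 8 without CTR replicate 2 or 3 or GLLP replicate 2 or 3 at PND21), while the median over the set ranged from 0.25 to 0.55. For these shifts the cause was not tested.

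The sample titles share replicate numbers between groups without saying what they mean, and the sample descriptions number the GLLP offspring differently. The deviations of same-numbered libraries correlated at -0.141 to 0.155 for diet at PND21 and -0.165 to 0.3 for diet at PND540. For age they correlated at -0.169 to 0.081 in CTR and -0.17 to 0.154 in GLLP. Those of differently numbered libraries ran, in the same order, from -0.133 to 0.126, -0.36 to 0.271, -0.215 to 0.186 and -0.144 to 0.193. With so few libraries these values cannot exclude a pairing. The main fits had no replicate block because the labels do not say what a shared number means. With the replicate block, 27 genes were called at PND21 in all and 0 of the set, and 18 of the set were lower with age in CTR (21% of all genes).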
